A study of Drosophila melanogaster with 23 samples.

Results

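The actin genes and genes of direct actin regulators were followed in nascent RNA of Drosophila Kc167 cells. They were picked by FlyBase symbol: the actins Act5C, Act42A, Act57B and Act87E, the filament regulators chic, tsr, cpa and cpb, and the myosin II genes sqh and zip. Of these 10 symbols, 9 were joined to a row of the count table, which has 17659 genes, and zip is not analysed here. No measured value enters that choice, but the genes were proposed with earlier results of the same libraries known, so what follows describes these libraries and is not independent evidence.

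Kc167 is an embryonic line, labelled as female and of dorsal closure stage. Cells were fed 5-ethynyl uridine (EU, 0.2 mM for 1 h), and the RNA made in that time was coupled to biotin, captured and sequenced as single reads of 50 bases (neuRNA-seq). The 23 libraries come from 3 experiments, each with mock libraries of its own, which were transfected without any RNA. Experiment 1 holds 3 libraries of LaminB KD (a dsRNA against Lam, the B-type lamin of the nuclear envelope), 3 of AGO2 KD (an siRNA against AGO2, the Argonaute of RNA interference) and 3 of mock. Experiment 2 holds 2 libraries each of si5UTR+V966M, si5UTR+AGO2, si5UTR and mock. Here si5UTR is another siRNA, directed at the 5′UTR of AGO2, and it was given alone or with a tagged AGO2 construct without UTRs, either the wild type sequence or the catalytic mutant V966M. Experiment 3 holds 3 libraries of Dcr-2 KD (a dsRNA against Dcr-2, the nuclease that makes siRNAs) and 3 of mock. All groups are the same cell line, and the libraries of a group are described as biological replicates.

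Actin is the protein of the thin filaments that give cells their shape, drive their movement and divide them at cytokinesis. Filaments grow from monomers that profilin (chic) delivers, are cut and taken apart by cofilin (tsr), and are closed at their growing end by the capping protein, a dimer of an alpha subunit (cpa) and a beta subunit (cpb). Non-muscle myosin II pulls on them, and its regulatory light chain is sqh. Act5C and Act42A are the cytoplasmic actins of the fly, found in most cells, whereas Act57B and Act87E belong to muscle.

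Actin genes are close copies of one another, so their sequences decide how well reads of 50 bases tell them apart. The following stretches show how Act5C, the main actin of these cells, and the muscle actin Act87E differ at the start of their coding sequence. In the dm6 genome Act5C lies on chromosome X from 5900861 to 5905399 on the plus strand, and Act87E on chromosome 3R from 13425983 to 13428375 on the plus strand. The sequences are from the RefSeq genome of that build and run 5′ to 3′, positions are counted from the first base of the start codon, and capitals mark bases that differ between the genes.
Act5C, coding bases 1 to 30: atgtgtgacgaAgaAgttgcTgcTCtggtT
Act87E, coding bases 1 to 30: atgtgtgacgaTgaGgttgcCgcATtggtC

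The first 30 coding bases differ at 6 positions between Act5C and Act87E. Over 1128 coding bases, 90.7% were identical between Act5C and Act87E and 91.0% between Act5C and Act57B, against 86.2% between Act5C and Act42A. Of all 50-base windows in the coding sequence, 5.65% of those of Act87E, 4.91% of those of Act5C and 1.35% of those of Act57B occur more than once in the genome, and none of Act42A. Reads from such windows cannot be assigned to 1 gene by sequence, which makes the low counts of the muscle actins uncertain. No window of chic, tsr, cpa, cpb or sqh occurs more than once.

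The remaining genes lie on chromosome 2R (Act42A from 6013910 to 6015689, Act57B from 20944021 to 20946431, tsr from 24044453 to 24046805, cpa from 21057787 to 21059883), on 2L (chic from 5972115 to 5981018, cpb from 1704902 to 1706962) and on X (sqh from 6223061 to 6225140). Reads were counted over whole gene bodies, introns included. The bodies are short, from 1.78 kb for Act42A to 4.54 kb for Act5C, apart from chic with 8.90 kb. Exons fill 29.6% of the body of chic and 31.2% of that of tsr, and between 65.6% and 93.4% of the others. Act57B overlaps a snoRNA gene on the same strand, so reads in that overlap can belong to either.

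Libraries held 5215481 to 15641835 counted reads. Levels are given in CPM, the reads of a gene per 1000000 reads of the library size after TMM scaling, which was set within each experiment. The targeted gene was lower in each depletion. Lam had 100.98 to 131 CPM in LaminB KD, against 348 to 356 CPM in mock. AGO2 had 217 to 238 CPM in AGO2 KD, against 301 to 323 CPM in mock, and 159 to 161 CPM in si5UTR, against 282 to 321 CPM in mock of experiment 2. With the constructs it had 379 to 432 CPM (si5UTR+V966M) and 427 to 480 CPM (si5UTR+AGO2), counts that can include reads of the construct itself. Dcr-2 had 128 to 187 CPM in Dcr-2 KD, against 226 to 241 CPM in mock. The haemocyte genes srp and Hml were well transcribed in all libraries (1738 to 2327 and 1203 to 2381 CPM), while another haemocyte gene, NimC1, had 0 reads in 19 of 23 libraries, and roX1, an RNA of male cells, had at most 2.75 CPM. Among 9 muscle markers Mef2 had 268 to 570 CPM and the next highest, sls, 2.67 to 20.4 CPM. Mhc had 1.46 to 18.1 CPM, so sums over the muscle markers mainly follow Mef2. Among the neuron markers brp had 56.8 to 198 CPM and elav 60.9 to 99.02 CPM. The others reached at most 29.99 CPM (Appl), 4.81 CPM (nSyb) and 1.19 CPM (Syt1), so sums over the neuron markers mainly follow brp and elav. AGO2 KD replicate 1 lay apart from replicates 2 and 3 of its group in several genes below.

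In mock cells Act5C and, after it, Act42A had the most nascent RNA per kb of gene body, introns included, in all 3 experiments. Exons fill 29.6% of the body of chic and 31.2% of that of tsr, against 65.6% to 93.4% of the others. The order per kb of exon was not computed and can differ. Act5C led with 697 ± 26.6 CPM per kb of gene body in experiment 1 (SD, n = 3), followed by Act42A with 169 ± 6.78 CPM per kb. After them came sqh with 84.1 ± 11.2, chic with 78.8 ± 3.997, cpa with 63.2 ± 3.06, tsr with 33.1 ± 4.86 and cpb with 25.2 ± 1.93 CPM per kb (SD, n = 3). The ranges of sqh and chic overlapped (71.1 to 90.8 and 74.2 to 81.3 CPM per kb), so their order is not resolved there or in experiment 2, while in experiment 3 sqh (106 to 120 CPM per kb) lay above chic (97.6 to 101.1 CPM per kb). Those of tsr and cpb only just missed each other (27.6 to 37.0 and 23.4 to 27.2 CPM per kb), and in experiment 2 they overlapped. The subunits of the capping dimer were thus unequal, with more nascent RNA per length for cpa than for cpb in every mock library.

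**Figure D1:**
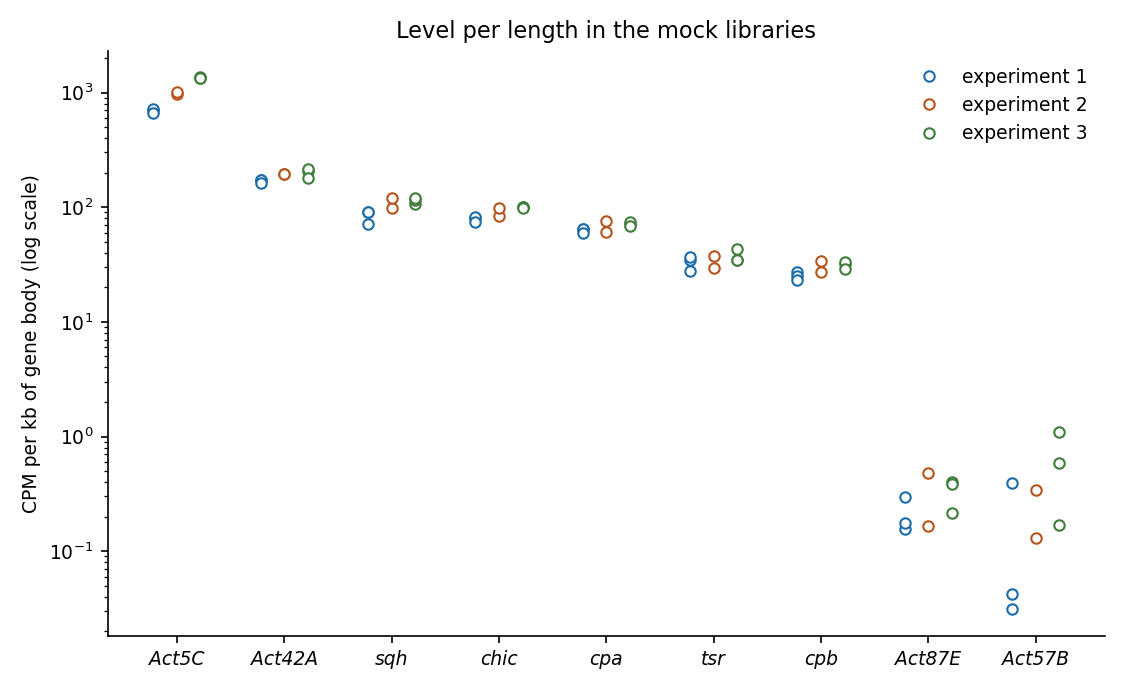
Level of the 9 genes in the 8 mock libraries, in CPM per kb of gene body on a log axis, with 1 circle per library coloured by experiment. Act5C is highest in every mock library, and Act87E and Act57B lie far below the other genes.

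The level of Act5C differed between experiments. Its mock libraries had 3225, 3239 and 3024 CPM in experiment 1, 4376 and 4618 CPM in experiment 2, and 6156, 6023 and 6065 CPM in experiment 3. The 3 ranges do not overlap. Act42A, the other cytoplasmic actin, had 287 to 387 CPM over the same 8 libraries. Scaling was set within each experiment and the experiments share no library, so this difference between experiments was not tested and comparisons stay within an experiment. Over all 23 libraries the highest CPM of Act5C was 3.04 times the lowest, against 1.45 times for cpa and 1.92 times for tsr.

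The muscle actins were at the limit of detection in all conditions. Act57B had 1 to 17 reads per library and 128 in all 23 libraries, and Act87E had 0 to 17 reads per library and 130 in all. A floor of 3 reads corresponds to 0.188 to 0.556 CPM, depending on the library. Act57B had 2 reads over both si5UTR+V966M libraries, against 19 reads over both si5UTR libraries, 16 of them in replicate 3. Act87E had 0 reads in LaminB KD replicate 2, which allows up to 0.363 CPM, and 12 reads in LaminB KD replicate 3. Replicates of a group thus differed widely, and a change of the muscle actins was not detectable at this depth. The filter on low counts removed Act57B in each experiment and Act87E in experiments 1 and 3. In experiment 2 Act87E passed, with adjusted p-values of 0.889 to 1.0 by edgeR in the 6 comparisons there.

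**Figure D2:**
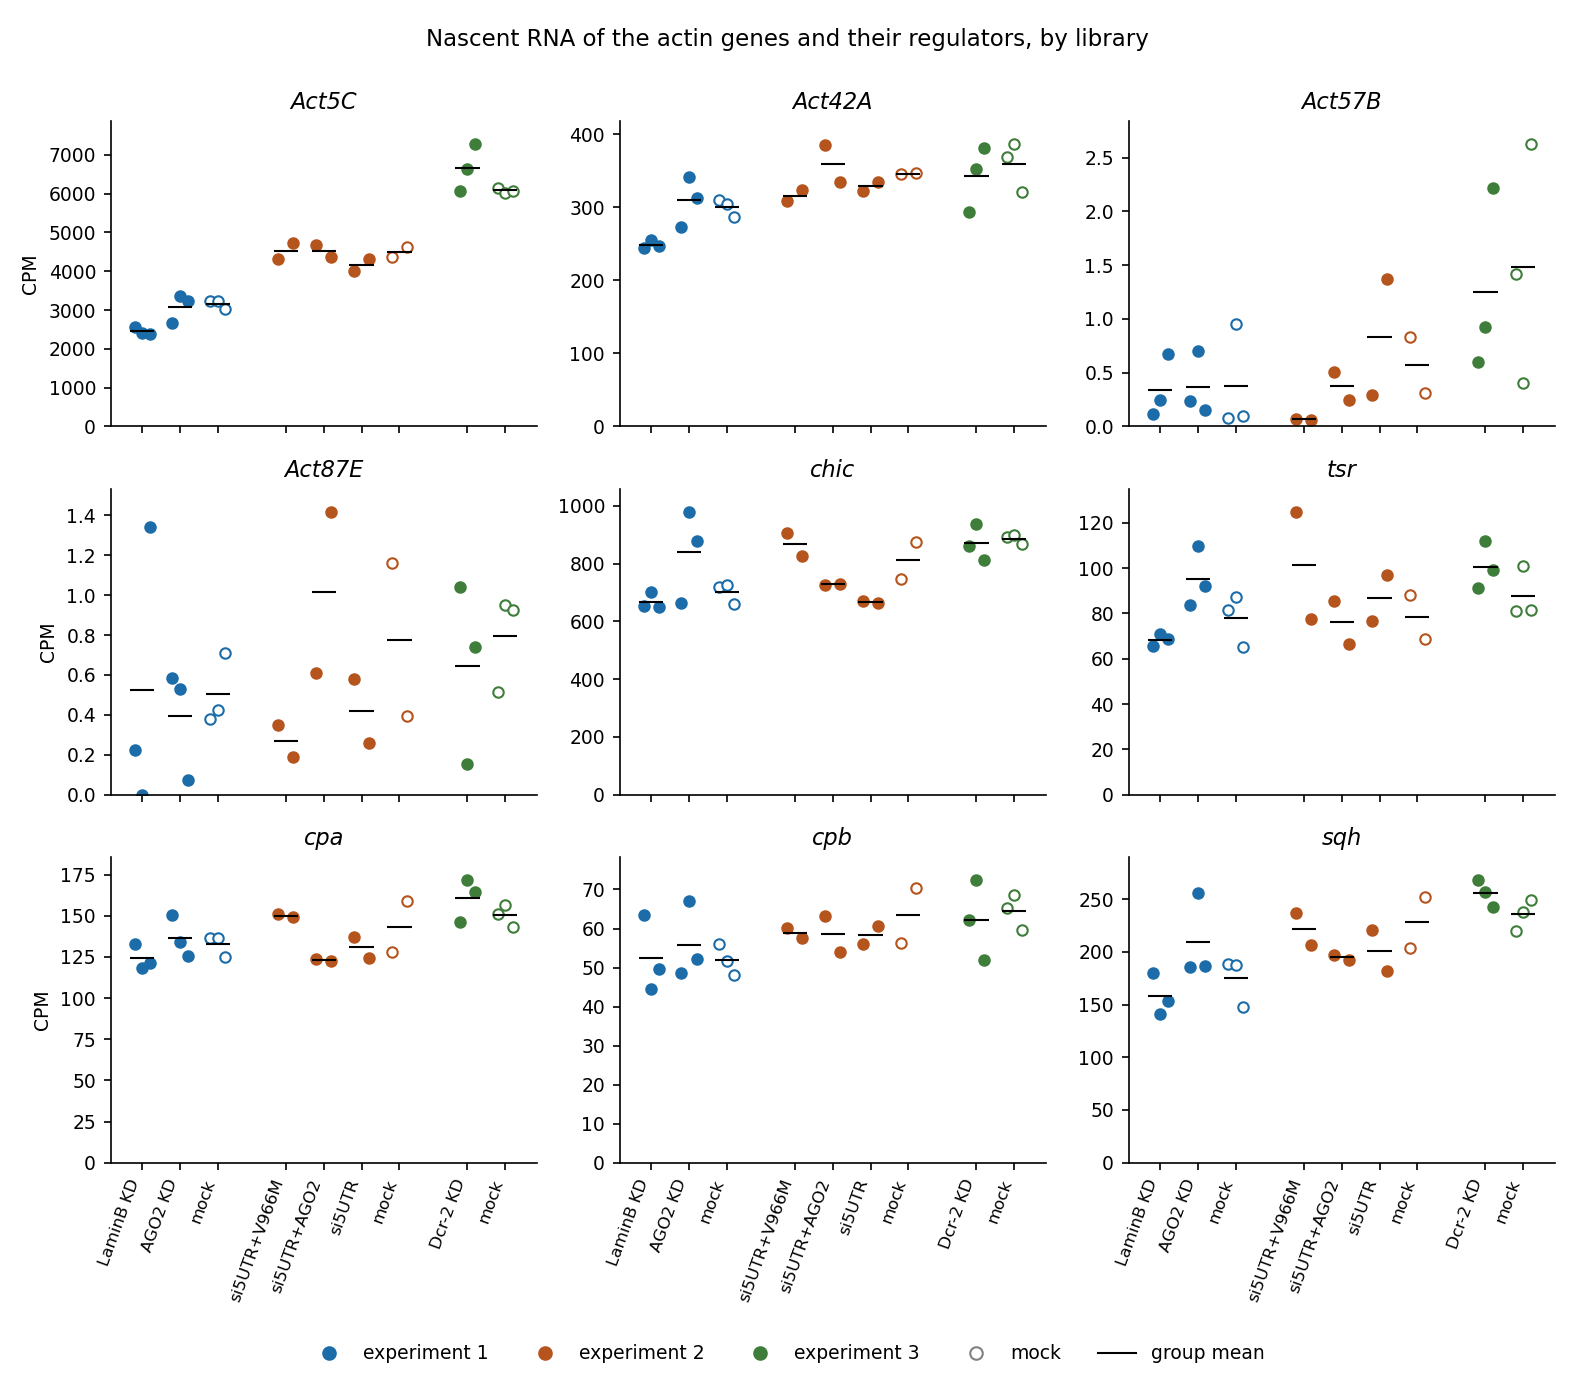
CPM of each gene in all 23 libraries (vertical axes start at 0 and differ between genes), with filled points for treated libraries, open points for mock, colours for experiments and black lines for group means. LaminB KD lies below mock for Act5C and Act42A, and AGO2 KD replicate 1, the left point of its group, lies below replicates 2 and 3 for Act5C, Act42A and chic.

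Both cytoplasmic actins fell in LaminB KD. Act5C had 2563, 2399 and 2395 CPM in LaminB KD, against 3225, 3239 and 3024 CPM in mock. All LaminB KD libraries were below all mock libraries, and the fold was 0.776 (95% interval 0.7099 to 0.848), which is -0.37 as log2 fold change (SE 0.0655, edgeR adjusted p 0.000897, called at a value under 0.1). Act42A had 244, 255 and 248 CPM in LaminB KD, against 310, 304 and 287 CPM in mock, again without overlap (-0.27, SE 0.0773, edgeR adjusted p 0.0202). In a culture, fewer cells that transcribe a gene and less transcription per cell cannot be told apart.

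The regulators were not called in LaminB KD. The myosin light chain gene sqh had 180, 141 and 153 CPM in LaminB KD, against 189, 188 and 148 CPM in mock, and cofilin (tsr) had 65.4, 70.9 and 68.9 CPM, against 81.3, 87.1 and 65.1 CPM in mock. Mock replicate 3 was the lowest mock library in both, within the range of LaminB KD for sqh and just below it for tsr. Profilin (chic) had a fold of 0.952 (95% interval 0.832 to 1.09), and the capping subunits had folds of 0.938 (cpa, 0.832 to 1.06) and 1.01 (cpb, 0.831 to 1.23). So 2 of 7 genes tested were called, both down, where 29.2% of all 8142 genes tested were called in either direction, 12.5% down and 16.7% up. As a share this is what the whole transcriptome gives. Their log2 fold changes had a median of -0.15, against -0.0049 over all genes tested.

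The call of Act5C held in all 16 alternative fits (log2 fold changes of -0.41 to -0.35), whereas that of Act42A was lost with offsets for gene length and GC content (-0.11, edgeR adjusted p 0.342). Without mock replicate 3, tsr was called too (-0.31, edgeR adjusted p 0.0927). Genes called down in LaminB KD were shorter than those called up, with median bodies of 2.32 kb and 11.1 kb, against 2.10 kb for the 7 genes here and 2.86 kb over all genes tested. Marker sums moved as well: 10 haemocyte markers had 7667 to 7811 CPM in LaminB KD, against 6555 to 7019 CPM in mock, 5 neuron markers 304 to 317 CPM, against 146 to 155 CPM, and 9 muscle markers 525 to 592 CPM, against 471 to 512 CPM. The haemocyte sums mainly follow ush, srp, Hml and Pxn, the neuron sums brp and elav, and the muscle sums Mef2. The part of the marker sums in the fall of the actins was not tested.

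Neither cytoplasmic actin was called in AGO2 KD. Act5C had 2662, 3359 and 3221 CPM in AGO2 KD, against 3225, 3239 and 3024 CPM in mock, so that replicate 1 was below and replicate 2 above every mock library. Its fold was 0.974 (95% interval 0.892 to 1.06). Act42A had 273, 342 and 312 CPM in AGO2 KD, against 310, 304 and 287 CPM in mock, with the same order of replicates and a fold of 1.03 (95% interval 0.929 to 1.14). Without AGO2 KD replicate 1 neither Act5C (0.06 as log2 fold change, edgeR adjusted p 0.4933) nor Act42A (0.13, edgeR adjusted p 0.339) was called. For cpa and cpb the log2 fold changes were 0.04 (SE 0.0874) and 0.11 (SE 0.144).

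The regulators of monomers and of contraction had higher means, short of the call. Profilin (chic) had 663, 979 and 878 CPM in AGO2 KD, against 720, 724 and 661 CPM in mock (0.26 as log2 fold change, SE 0.0984, edgeR adjusted p 0.138). Cofilin (tsr) had 83.9, 110 and 92.1 CPM in AGO2 KD, against 81.3, 87.1 and 65.1 CPM in mock (0.29, SE 0.118, edgeR adjusted p 0.165). The light chain sqh had 185, 255.9 and 187 CPM in AGO2 KD, against 189, 188 and 148 CPM in mock (0.26, SE 0.128, edgeR adjusted p 0.275). The groups overlapped in each of these. Hence 0 of 7 genes were called by edgeR, with 2 of them at an unadjusted p under 0.05, where 10.2% of all genes tested were called in either direction, 7.92% up and 2.32% down.

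These calls changed with the libraries and the fit. Without AGO2 KD replicate 1 chic (0.41, edgeR adjusted p 0.000518) and tsr (0.38, edgeR adjusted p 0.0761) were called up, while without AGO2 KD replicate 2 chic fell back to 0.13 (edgeR adjusted p 0.543). DESeq2 called chic (adjusted p 0.0704) and the edgeR fit without a filter on low counts called chic, sqh and tsr. Genes called up in AGO2 KD had a median body of 13.4 kb, against 2.86 kb over all genes tested. The 5 neuron markers summed to 186 to 204 CPM in AGO2 KD, against 146 to 155 CPM in mock, the 9 muscle markers to 490 to 547 CPM, against 471 to 512 CPM, and the 10 haemocyte markers to 6240 to 6592 CPM, against 6555 to 7019 CPM. Their part in these values was not tested.

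Set directly against AGO2 KD, LaminB KD had less nascent RNA of all 7 genes tested, and 5 of them were called down, where 20.3% of all genes tested were called in either direction, 10.1% down and 10.2% up. Their log2 fold changes had a median of -0.33, against 0.0051 over all genes tested. The called genes were tsr (-0.48, SE 0.119), sqh (-0.40, SE 0.129), chic (-0.33, SE 0.0985), Act5C (-0.33, SE 0.0654) and Act42A (-0.31, SE 0.0772), with edgeR adjusted p-values of 0.0137, 0.0461, 0.0346, 0.00340 and 0.0129. The libraries of the groups did not overlap in any of these but chic, where AGO2 KD replicate 1 had 663 CPM and LaminB KD had 649 to 700 CPM. These genes were picked by their calls, and how many of all genes tested lacked overlap was not counted. For cpa and cpb, LaminB KD was at 0.911 (95% interval 0.808 to 1.03) and 0.940 (95% interval 0.772 to 1.14) of AGO2 KD. Without AGO2 KD replicate 1 all 5 were still called, Act5C at -0.44 and Act42A at -0.41. Act5C, Act42A and tsr were called in all alternative fits, also with offsets for gene length and GC content. The call of chic was lost without AGO2 KD replicate 2 or 3 or LaminB KD replicate 3, and that of sqh without AGO2 KD replicate 2 or LaminB KD replicate 2 or 3. This comparison shares its libraries with those against mock, so it is no separate evidence of them.

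**Figure D3:**
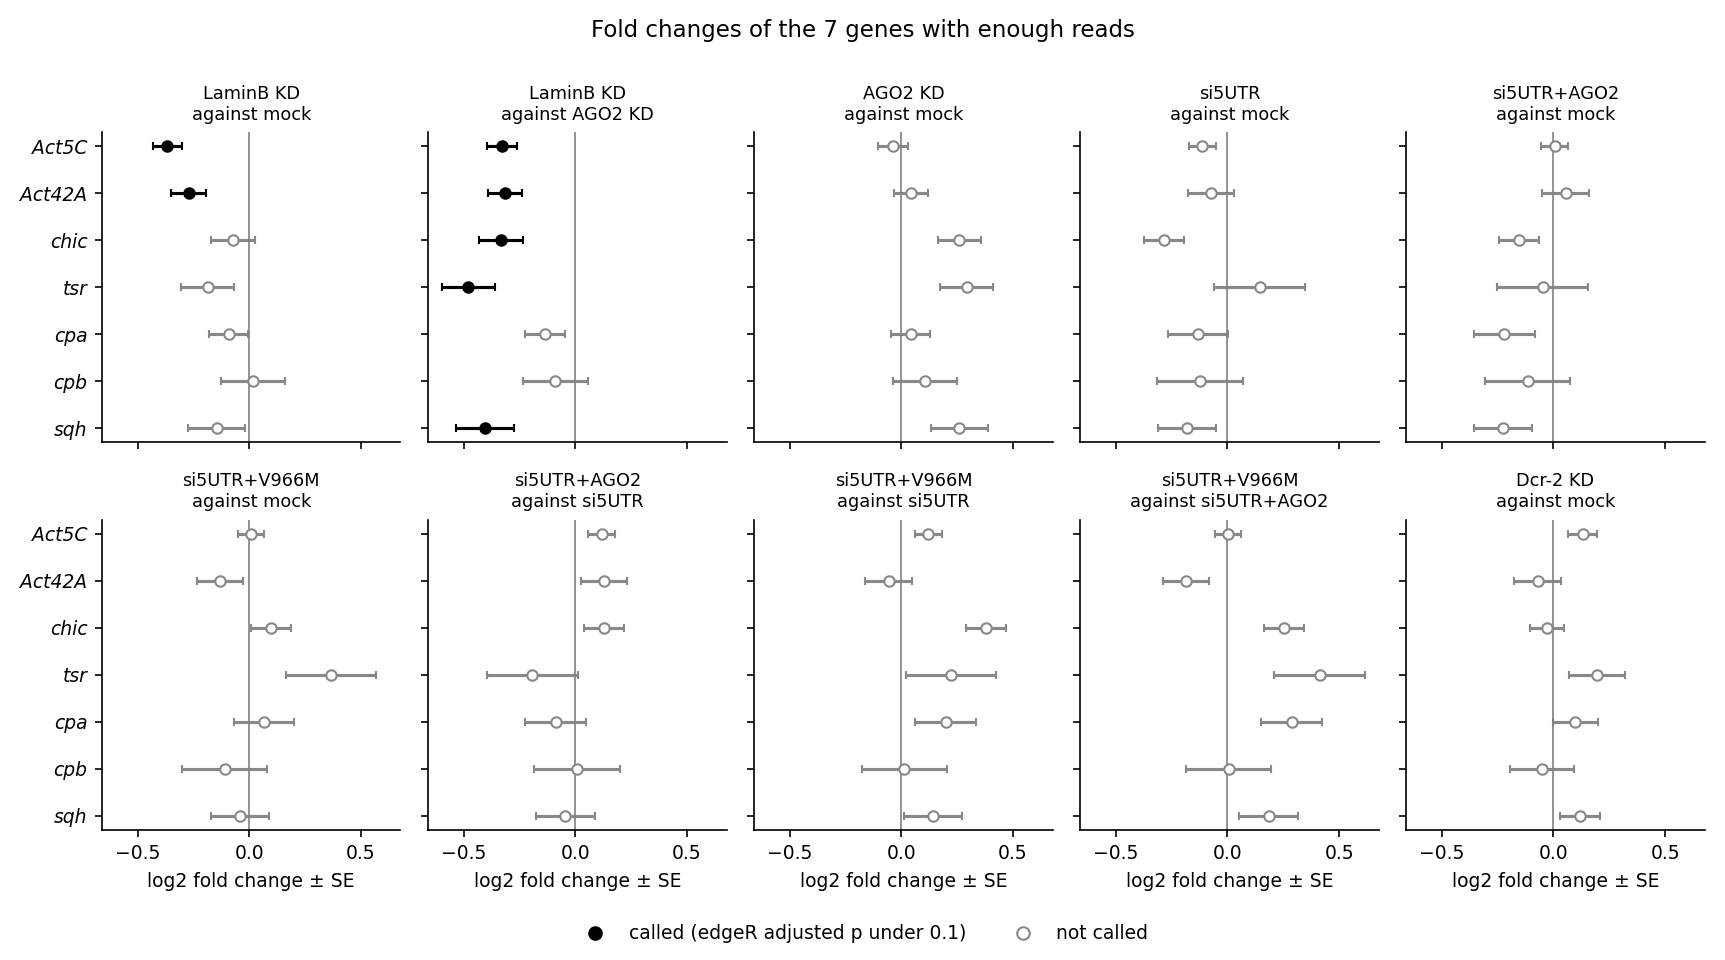
Log2 fold change of the 7 genes with enough reads in each of the 10 comparisons, the group named first over the group named after "against", with bars for 1 SE and filled points for genes called by edgeR. All called genes are in the comparisons with LaminB KD, 2 against mock and 5 against AGO2 KD, and all of them are below 0.

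In experiment 2 no gene of the set was called. The siRNA against the AGO2 5′UTR asked whether a different route to AGO2 loss gives the same changes, and the constructs asked whether AGO2 restores them. None of the 23 libraries is labelled as given an empty plasmid, so AGO2 from the construct and the plasmid itself cannot be told apart. Of 8 genes tested, 0 were called by edgeR in si5UTR against mock (1 at an unadjusted p under 0.05), where 1.23% of 8727 genes were. The count was also 0 in si5UTR+AGO2 against mock (0 at an unadjusted p under 0.05, background 0.149%), in si5UTR+V966M against mock (0, background 0.63%), in si5UTR+AGO2 against si5UTR (0, background 0.63%), in si5UTR+V966M against si5UTR (1, background 0.264%) and in si5UTR+V966M against si5UTR+AGO2 (2, background 0.16%). Each background is the share of all genes called at an adjusted p under 0.1. How many of all genes had an unadjusted p under 0.05 was not counted, here or in the other comparisons. DESeq2 called chic in 3 of these comparisons, si5UTR against mock and si5UTR+V966M against si5UTR and against si5UTR+AGO2.

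Profilin was the gene of the set nearest to a call. The gene chic had 907 and 827 CPM in si5UTR+V966M, 725 and 730 CPM in si5UTR+AGO2, 669 and 664 CPM in si5UTR, and 748 and 874 CPM in mock. Both si5UTR libraries were below both mock libraries, and both si5UTR+V966M libraries were above those of si5UTR+AGO2, which were above those of si5UTR. Such separation of 2 libraries from 2 also occurred without a call: it held for 2 to 5 of the 8 genes tested in each comparison of experiment 2. In some comparisons these include Act87E, which was at the limit of detection. How many of all genes tested were separated in this way was not counted. The log2 fold change was 0.38 (SE 0.0896, edgeR adjusted p 0.106) for si5UTR+V966M against si5UTR, 0.13 (SE 0.0897, edgeR adjusted p 0.885) for si5UTR+AGO2 against si5UTR, and -0.28 (SE 0.0896, edgeR adjusted p 0.200) for si5UTR against mock. The gene was called in 10 of 15 alternative fits for si5UTR+V966M against si5UTR and in 7 of 14 for si5UTR against mock. In 1 fit of each (without si5UTR+V966M replicate 3 and without mock replicate 7) a compared group was left with 1 library, which is then assumed to vary like the other groups.

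The cytoplasmic actins were not called in experiment 2. Act5C had 4318 and 4725 CPM in si5UTR+V966M, 4671 and 4359 CPM in si5UTR+AGO2, 3996 and 4323 CPM in si5UTR, and 4376 and 4618 CPM in mock. Both si5UTR libraries were below both mock libraries, with a fold of 0.925 (95% interval 0.853 to 1.00). Act42A had 308 and 324 CPM in si5UTR+V966M, 385 and 334 CPM in si5UTR+AGO2, 322 and 335 CPM in si5UTR, and 345 and 347 CPM in mock. Cofilin (tsr) had 125 and 77.7 CPM in the si5UTR+V966M libraries, against 88.3 and 68.9 CPM in mock, and was called only in fits without the lower of them, si5UTR+V966M replicate 3 (0.67, edgeR adjusted p 0.0584, against mock), which leave only the higher library in that group and take its spread from the other groups. For cpa the si5UTR+V966M libraries (151 and 149 CPM) were above those of si5UTR+AGO2 (124 and 122 CPM), by 0.29 as log2 fold change (SE 0.136, edgeR adjusted p 0.560).

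Depletion of Dcr-2 was included to ask whether loss of another factor of RNA interference acts alike. Of 7 genes tested, 0 were called by edgeR or DESeq2 and 0 had an unadjusted p under 0.05, where 2.02% of 7733 genes were called. Act5C had 6059, 6627 and 7285 CPM in Dcr-2 KD, against 6156, 6023 and 6065 CPM in mock, with an SD of 613 CPM in Dcr-2 KD and 67.9 CPM in mock (n = 3 each) and a fold of 1.09 (95% interval 1.00 to 1.20). The myosin light chain sqh had 268, 256.4 and 243 CPM in Dcr-2 KD, against 220, 238 and 249 CPM in mock. Act42A, chic, tsr, cpa and cpb had log2 fold changes between -0.07 and 0.20. The groups overlapped in all 7 genes.

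Whether AGO2 KD differed from the other depletions was tested as a difference of effects, each against the mock libraries of its own experiment. For AGO2 KD and si5UTR, 0 of 9 genes were called by edgeR (2 at an unadjusted p under 0.05), where 0.0748% of 9357 genes were. The widest gap was that of chic, whose log2 fold change was 0.26 in AGO2 KD and -0.28 in si5UTR, a difference of 0.54 (SE 0.142, edgeR p 0.000746, adjusted p 0.201). DESeq2 and the fits without a filter on low counts, without AGO2 KD replicate 1 and without mock replicate 7 called it, with adjusted p-values between 0.000191 and 0.0499. For sqh the difference was 0.44 (SE 0.194, edgeR adjusted p 0.550). For AGO2 KD and Dcr-2 KD, 0 of 8 genes were called by edgeR or DESeq2 (1 at an unadjusted p under 0.05), where 4.99% of 8531 genes were, and chic had a difference of 0.28 (SE 0.132, edgeR adjusted p 0.297). Without AGO2 KD replicate 1 this was 0.42 (edgeR adjusted p 0.0246).

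Levels of the 7 genes were positively related over libraries. After centring log2(CPM + 1) within each experiment, all 21 pairs had a Pearson r above 0 over 23 libraries, from 0.12 (Act42A and cpa) to 0.76 (Act5C and Act42A), with a median of 0.41. Profilin and the light chain (chic and sqh) had 0.70, and the capping subunits cpa and cpb 0.33. These are descriptions over libraries that share groups and scaling. Act42A ranked 19th among 6714 genes by likeness to Act5C. The genes most like Act5C were RpS3A, a ribosomal protein (0.84), Rpn7, a proteasome subunit (0.83), and TfIIS, a transcription elongation factor (0.83), where the median gene had 0.04 and the 99th percentile was 0.71. Their bodies are short, with 1.98, 1.39 and 1.84 kb, and the part of gene length in this likeness was not tested.

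The wider actin pathway was described with 9 lists of 62 genes. Of these, 59 passed the filter in experiment 1. In LaminB KD against mock 17 were called up, of which 7 changed sign with offsets for gene length and GC content, and 7 were called down, where 16.7% of all genes tested were called up and 12.5% down, with a median log2 fold change of 0.04 over the 59. Those called up included 5 of 9 crosslinkers and linkers (Fim, cher, Moe, shot, rhea), both genes of the SRF arm (bs, the serum response factor, and Mrtf, the cofactor that monomeric actin holds back), 3 of 10 genes of monomer and filament turnover (LIMK1, cdi, tmod), 2 of 7 formins and Ena (Fhos, form3), 2 of 6 other myosins (jar, Myo31DF) and 1 of 7 nucleation promoters (wash). Those called down included 2 of 7 Arp2/3 genes (Arp3, Arpc1) and 1 each of 3 lists (Gel, Abi, Myo61F).

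Leaving out genes that averaged under 5 CPM, Fhos, a formin of the family that nucleates and elongates filaments, had the largest change, with 85.6 to 105 CPM in LaminB KD, against 50.6 to 57.3 CPM in mock (0.86, SE 0.102, edgeR adjusted p 2.08e-05). The formin form3 followed with 7.74 to 13.1 CPM, against 5.19 to 6.63 CPM in mock (0.74, SE 0.293, edgeR adjusted p 0.0854), but kept its call in only 3 of 16 alternative fits. The nucleation promoter wash had 67.1 to 90.6 CPM in LaminB KD, against 56.9 to 57.3 CPM in mock (0.48, SE 0.110, edgeR adjusted p 0.00557). Many of the risen genes are long: their median body was 29.4 kb, against 3.16 kb for those that fell. With offsets for gene length and GC content, 4 of the 17 (Fhos, wash, Fim, LIMK1) were still called up, 6 were not called and 7 changed sign (cdi, tmod, cher, Moe, shot, Mbs, Mrtf), of which shot was then called down at -0.13. Of the 7 that fell, 5 were still called down (Rac1, Rok, Gel, Abi, Myo61F). Among the crosslinkers only Fim kept its call with the offsets, and neither gene of the SRF arm did, while none of the 7 that fell changed sign.

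**Figure D4:**
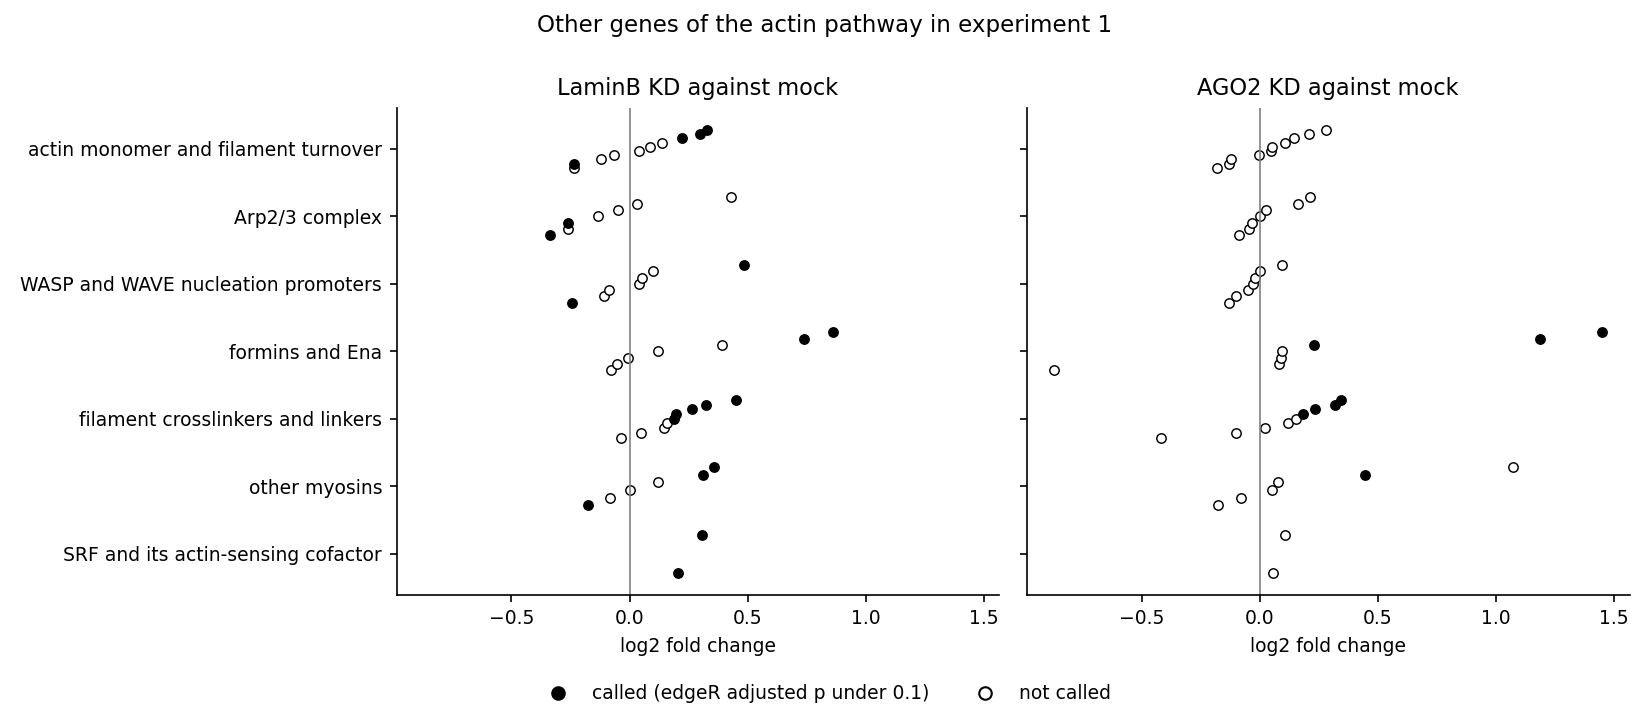
Log2 fold change against mock of 48 of the 59 other actin pathway genes tested in experiment 1, in 7 lists, in LaminB KD (left) and AGO2 KD (right), with filled points for genes called by edgeR. The called genes shown above 0 number 15 in LaminB KD and 8 in AGO2 KD, of which 6 and 1 changed sign with offsets for gene length and GC content, and those below 0 number 5 in LaminB KD and 0 in AGO2 KD.

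In AGO2 KD against mock 11 of the 59 were called up, of which 1 changed sign with the offsets, and 0 down, where 7.92% of all genes tested were called up and 2.32% down, with a median of 0.07. They were the formins Fhos, capu and Frl, the linkers Fim, cher, shot and rhea, Mlc-c (the essential light chain of myosin II), Mbs, Rac2 and Myo31DF. Leaving out those that averaged under 5 CPM, Fhos led with 114.8 to 133 CPM in AGO2 KD, against 50.6 to 57.3 CPM in mock (1.18, SE 0.102, edgeR adjusted p 1.45e-06). The class I myosin Myo31DF had 221 to 230 CPM, against 163 to 169 CPM in mock (0.45, SE 0.0767, edgeR adjusted p 0.00120), and the GTPase Rac2 had 93.0 to 108 CPM, against 72.5 to 87.8 CPM in mock (0.38, SE 0.124, edgeR adjusted p 0.0804). With the offsets, 4 of the 11 were still called up (Fhos, Myo31DF, Rac2, Mlc-c), 6 were not called and shot changed sign.

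Directly against AGO2 KD, LaminB KD had 7 of the 59 called up and 11 down, where 10.2% of all genes tested were called up and 10.1% down. With the offsets all 11 were still called down and 4 of the 7 up, and the total counts were 4 up and 14 down. The shares of all genes given above are from the fit without offsets, so they are no background for these totals. The largest changes were form3 with 7.74 to 13.1 CPM in LaminB KD, against 2.92 to 3.46 CPM in AGO2 KD (1.61, SE 0.306, edgeR adjusted p 0.00240), wash (0.53, SE 0.110, edgeR adjusted p 0.00456) and the class VI myosin jar (0.49, SE 0.108, edgeR adjusted p 0.00697).

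Outside experiment 1 few pathway genes were called. In experiment 2 Fhos had 137 to 148 CPM in si5UTR, against 65.8 to 79.1 CPM in mock (0.98, SE 0.166, edgeR adjusted p 0.00251), and it was lower with the wild type construct, at 64.9 to 80.6 CPM in si5UTR+AGO2, against 137 to 148 CPM in si5UTR (-0.97, SE 0.166, edgeR adjusted p 0.00414). With the catalytic mutant Fhos had 89.3 to 115.3 CPM in si5UTR+V966M, between both, and was not called against si5UTR (-0.48, SE 0.164, edgeR adjusted p 0.374), si5UTR+AGO2 (0.49, SE 0.166, edgeR adjusted p 0.351) or mock (0.50, SE 0.165, edgeR adjusted p 0.266). The neuron markers summed to 126 to 148 CPM in si5UTR+V966M, 173 to 181 CPM in si5UTR+AGO2, 199.8 to 204 CPM in si5UTR and 161 CPM in mock, and the haemocyte markers to 5867 to 6183, 7219 to 7579, 6450 to 6576 and 6940 to 7478 CPM in the same order of groups. Their part in the change of Fhos was not tested. No other of the 60 pathway genes tested in experiment 2 was called by edgeR in any of its 6 comparisons. In Dcr-2 KD against mock, Fhos (169 to 175 CPM, against 100.3 to 125 CPM in mock; 0.57, SE 0.106, edgeR adjusted p 0.0242) and the class I myosin Myo61F (0.44, SE 0.109, edgeR adjusted p 0.0789) were the only calls among 59. Without mock replicate 10, 11 or 12 neither was called.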

How the data were processed

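The authors trimmed reads with cutadapt 1.10, mapped them to dm6 with HISAT2 2.0.4 and assigned them by strand to gene bodies of FlyBase 6.11 with featureCounts 1.5.0-p3. What they deposited is a table of raw read counts, without molecular identifiers, so PCR copies count as reads. Symbols, coordinates and exons came from Ensembl and RefSeq annotation of that build, and 17464 of 17659 identifiers had a symbol.

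Fits were made per experiment with edgeR 4.0.16 (R 4.3.3, treatment as the only term, TMM, filterByExpr, quasi-likelihood F test). P-values were adjusted by Benjamini-Hochberg over all genes tested, and a gene was called at an adjusted p under 0.1. SE is the size of the log2 fold change over the square root of F, and intervals of folds take it as normal. They are therefore narrower than the F test allows. For Act5C in Dcr-2 KD against mock the lower end was 1.00016, while the edgeR p was 0.0689. Differences of effects used an interaction contrast over both experiments. The fits were tested on simulated data.

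Alternatives were a stricter adjusted p of 0.05, DESeq2 1.42.0, RLE size factors, no filter, only the 2 groups compared, blocking by replicate number, leaving out each library, and loess offsets for gene length and GC content.

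The genes and pathway lists were chosen with earlier results of these data known. Named were all genes of the set, the targets as a check, per comparison the 3 called pathway genes with the largest change and a mean of at least 5 CPM (other called pathway genes by name only, and those of the interactions with values), and the 3 genes most like Act5C. A pathway list and a stretch of sequence are not reported here.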

Additional observations from a re-analysis of the deposited data

Results flagged for a closer look

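AGO2 KD, set against its own mock libraries, differed in its effect from Dcr-2 KD, set against those of experiment 3, by the interaction contrast in 3 of 59 other actin pathway genes, where 4.99% of all genes tested were called, so the share is that of the background. All 3 had the higher log2 fold change in AGO2 KD, and none was called with offsets for gene length and GC content, an alternative added after seeing the data. For the formin Fhos the difference was 0.61 (SE 0.148, edgeR adjusted p 0.0232), against 0.29 with the offsets (edgeR adjusted p 0.448). For cher, a filamin, it was 0.35 (SE 0.0973, edgeR adjusted p 0.0465), against 0.06 with the offsets (edgeR adjusted p 0.872), and it was also lost without mock replicate 2. For ena, which promotes filament elongation, it was 0.32 (SE 0.0954, edgeR adjusted p 0.0668), against 0.09 with the offsets (edgeR adjusted p 0.634), and it was called in 10 of 20 alternative fits.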

How the results depend on the processing

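The number of genes of the set called was unchanged by the alternatives in Dcr-2 KD against mock, si5UTR+AGO2 against mock and si5UTR+AGO2 against si5UTR (0 throughout). No call changed sign. It moved as follows. In LaminB KD against mock it was 2, 1 with gene length and GC offsets, and 2 to 3 when each library was left out. In LaminB KD against AGO2 KD it was 5, and 3 to 5 without 1 library. In AGO2 KD against mock it was 0, 1 with DESeq2, 3 with no filter on low counts, and 0 to 2 without 1 library. In si5UTR against mock it was 0, 1 with DESeq2 and with no filter, and 0 to 1 without 1 library. In si5UTR+V966M against si5UTR it was 0, 1 with DESeq2, RLE size factors, gene length and GC offsets, no filter or the replicate block, and 0 to 1 without 1 library. It was 0 to 1 without 1 library in si5UTR+V966M against mock, and in si5UTR+V966M against si5UTR+AGO2 it was 1 with DESeq2 and 0 to 2 without 1 library. For the difference of AGO2 KD and si5UTR effects it was 1 with DESeq2 and with no filter and 0 to 1 without 1 library, and for that of AGO2 KD and Dcr-2 KD 0 to 1. The cause of these moves was not tested.

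Deviations of same-numbered libraries from their group means correlated at -0.13 to 0.04 in experiment 1, against -0.14 to 0.14 for differently numbered libraries. The ranges were -0.02 to 0.02 against -0.08 to 0.08 in experiment 2, and 0.02 to 0.04 against -0.06 to 0.04 in experiment 3. Groups of experiment 2 hold 2 libraries each, whose deviations mirror each other. Its mock libraries, numbered 7 and 8 in their titles, count as differently numbered throughout. For both reasons the ranges of experiment 2 cannot show a pairing. Whether replicate numbers pair the libraries is not settled by these values. With the replicate block the number called was 2 in LaminB KD against mock, 5 in LaminB KD against AGO2 KD and 0 in AGO2 KD against mock. In Dcr-2 KD it was 0 with a replicate block by the numbers of the deposited lookup table, an alternative chosen after seeing the data. The block added the call of chic in si5UTR+V966M against si5UTR. By the numbers in the sample titles, the remaining comparisons of experiment 2 shared fewer than 2 replicate numbers. By those of the lookup table, si5UTR+AGO2 and mock share the numbers 1 and 2, and no block was fitted there. Over all genes the block gave 30 up and 19 down in si5UTR+V966M against si5UTR, against 9 and 14 without it, and the block by lookup numbers gave 149 and 132 in Dcr-2 KD, against 107 and 49. In experiment 1 it gave 614 and 174 in AGO2 KD against mock, against 645 and 189, and 1280 and 987 in LaminB KD against mock, against 1356 and 1018.

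Over all genes, offsets for length and GC content changed the split of AGO2 KD calls to 469 up and 249 down, against 645 and 189, and of the difference of AGO2 KD and Dcr-2 KD effects to 99 and 61, against 346 and 80. Of the fold changes of the set under alternatives, 1411 kept their side of the threshold, 33 crossed it towards a call and 7 away from it. The muscle actins had too few reads for any statement.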
